A study of Mus musculus with 4 samples.

Results

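The 9 genes described here, Cd9, Cd63, Cd81, Cd82, Cd37, Cd53, Cd151, Tspan3 and Tspan4, encode tetraspanins and were found by matching their symbols to the gene identifiers of a table of 53139 gene loci, in which each had 1 row of its own. All 9 were among the 12648 loci that the authors' differential test had covered. RNA was sequenced from mouse tumour macrophages, taken from MCA fibrosarcomas and treated in culture with exosomes, the small vesicles that cells release. Macrophages given MEK1-hi exosomes (2 samples) were compared with macrophages given MEK1-low exosomes, whose label adds GFP (2 samples). MEK1 is the kinase that phosphorylates ERK. All 4 samples carry the cell line label 9609 parent, the cell type label Tumor macrophage and the genotype label WT. The GFP mark goes with the MEK1-low group, so an effect of MEK1 content and one of that mark cannot be told apart, and no macrophages without exosomes were among the samples. Whether the 2 samples of each group were separate cultures or animals is not in the labels, so the authors' p-values may speak for technical spread only.

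Tetraspanins are small proteins that cross the membrane 4 times and gather integrins, immunoglobulin-superfamily proteins and proteases into patches of the membrane. Cd9, Cd63 and Cd81 are the tetraspanins most used as protein markers of exosomes. In leukocytes the family bears on adhesion, migration, cell fusion and the trafficking of surface receptors. The RNA measured here is that of the recipient macrophages and is not a measure of tetraspanin protein on the exosomes they received.

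All levels are the authors' FPKM values (fragments counted per kilobase of transcript and scaled to library size), 1 value per group, so no value per sample and no spread between samples can be shown. A gene is called where the authors' Cuffdiff test gave a q-value, a p-value adjusted over all tested loci, under 0.05. Of all tested loci, 2.44% were called, 1.69% lower and 0.751% higher with MEK1-hi exosomes. The depth reached by each sample is unknown, because FPKM keeps no counts.

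Cd82 fell with MEK1-hi exosomes, and the other 8 tetraspanins did not pass the test. Of the 9, 1 was called lower and 0 higher, against the 1.69% and 0.751% of all tested loci. Within 2-fold of each gene's mean level, the share of tested loci called lower ran from 2.0% around Cd82 to 6.58% around Cd9. Before adjustment, at p under 0.05 per the authors' deposited table, 2 of the 9 were lower (Cd82 and Cd9) and 0 higher, against 5.12% lower and 3.53% higher over all tested loci. The 9 genes were chosen with earlier results of these data known, the fall of Cd82 included. These shares therefore do not test for an excess among the 9. The median log2 fold change of the 9 was -0.12 on the log2(FPKM + 1) scale, beside 0.00 for the 11804 tested loci at 1 FPKM or more. As these are bulk samples, fewer cells of a type and less RNA per cell cannot be told apart.

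**Figure D1:**
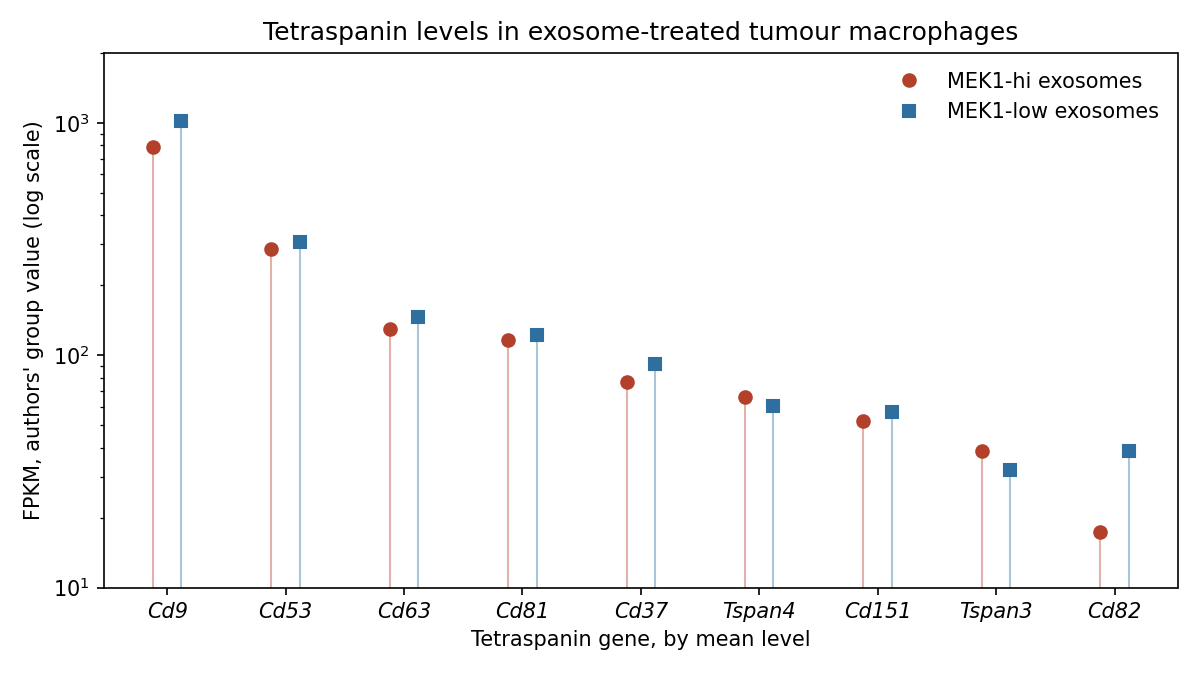
Level of each of the 9 tetraspanin genes (FPKM, log axis) with MEK1-hi exosomes (circles) and MEK1-low exosomes (squares), 1 authors' value per group and no error bars, ordered by mean level. Cd9 stands highest at 789 and 1015 FPKM, and the widest gap between groups as a ratio (on the log axis) is that of Cd82, at 17.3 and 38.6 FPKM.

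The sequence just upstream of a RefSeq start of Cd82 is shown because it belongs to the called gene. Those of Cd9, Cd63 and Cd81 are shown because these are the usual vesicle markers, which were not called. They are taken from build GRCm38.p6, 5′ to 3′ on the gene's strand, and end at or before the RefSeq start used. Bases that GENCODE M21 places in an exon of the gene are left out. In GENCODE M21, Cd63 begins at 128900989 and Cd82 (minus strand) at 93463140, so both of these stretches lie inside the annotated gene. Of the 6 annotated transcripts of Cd63, 1 starts within 100 bases of the RefSeq start used. Of the 4 RefSeq starts of Cd82, the one with the most GENCODE transcript starts within 100 bases (3 of them) was taken. The FPKM values join all transcripts of a gene and do not say which start was used. The Cd82 stretch lies at chr2:93462503-93462705 (minus strand), that of Cd9 at chr6:125494792-125495010 (minus strand), that of Cd63 at chr10:128909095-128909344 (plus strand) and that of Cd81 at chr7:143052500-143052738 (plus strand). Capitals mark matches on either strand to the GC box GGGCGG, a loose kappaB pattern GGGNNNNNCC, the PU.1 core GAGGAA, the CCAAT box, the TATA box TATAAA, the AP-1 pattern TGANTCA or the E-box CACGTG, and matches that overlap run together.
Cd82: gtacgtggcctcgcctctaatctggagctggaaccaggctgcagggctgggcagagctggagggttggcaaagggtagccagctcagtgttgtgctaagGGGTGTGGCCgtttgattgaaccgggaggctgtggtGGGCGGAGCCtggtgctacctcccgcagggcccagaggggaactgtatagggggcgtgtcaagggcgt
Cd9: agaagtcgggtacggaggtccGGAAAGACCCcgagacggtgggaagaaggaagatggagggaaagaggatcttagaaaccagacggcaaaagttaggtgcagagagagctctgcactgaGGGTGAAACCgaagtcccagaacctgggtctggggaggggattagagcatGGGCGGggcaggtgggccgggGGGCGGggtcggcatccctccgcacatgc
Cd63: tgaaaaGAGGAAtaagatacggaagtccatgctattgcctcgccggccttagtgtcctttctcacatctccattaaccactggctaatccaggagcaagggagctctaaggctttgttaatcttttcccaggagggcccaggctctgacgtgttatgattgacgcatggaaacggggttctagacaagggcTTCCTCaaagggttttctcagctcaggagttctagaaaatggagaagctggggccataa
Cd81: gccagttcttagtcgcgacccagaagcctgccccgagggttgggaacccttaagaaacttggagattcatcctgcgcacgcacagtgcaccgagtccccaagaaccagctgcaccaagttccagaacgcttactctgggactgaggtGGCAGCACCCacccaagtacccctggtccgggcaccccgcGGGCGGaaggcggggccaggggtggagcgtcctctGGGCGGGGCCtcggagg

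At the starts used, the 4 genes differed in the patterns they held. In the full 250 bases upstream of these RefSeq starts, Cd82 held 1 GC box, which overlaps 1 of its 2 kappaB matches. Cd9 held 2 GC boxes and 2 kappaB matches, and Cd81 held 3 of each. Cd63 held neither and had 2 PU.1 cores. The most upstream RefSeq start of Cd82 had the same counts as the start used, 1 GC box and 2 kappaB matches. The next start after the one used had neither, with 1 CCAAT box and 2 PU.1 cores, and the most downstream had none of the patterns. The contrast of Cd82 with Cd63 thus depends on the start taken. Among the 9 genes, taking 1 start per gene, the GC box was found in 6, the kappaB pattern in 5, the PU.1 core in 3, CCAAT in 2, CACGTG in 1, and TATAAA and TGANTCA in 0. Over the 32851 RefSeq windows of the same length, the shares were 32.7% for the GC box, 45.8% for kappaB, 23.3% for the PU.1 core, 33.8% for CCAAT, 6.02% for CACGTG, 12.4% for TATAAA and 6.75% for TGANTCA. The G and C content ran from 45.2% upstream of Cd53 to 68.0% upstream of Tspan4, was 64.4% upstream of Cd82, and had a median of 52.4% over all windows. These matches are letters in a window and are not measured binding sites.

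Cd82, also known as KAI1 and described in human cancers as a suppressor of metastasis, stood at 17.3 FPKM with MEK1-hi and 38.6 FPKM with MEK1-low exosomes. It fell by 55.2% relative to MEK1-low exosomes, a log2 fold change of -1.16 (p = 5e-05 and q = 0.00349 per the authors' deposited table). That p-value is the smallest in the authors' deposited table and is shared by 181 loci, 135 of them lower. By fold, Cd82 ranked 55th of the 214 loci called lower, and by the test statistic of the authors' deposited table (-4.94) it ranked 27th. Of the tested loci at 1 FPKM or more, 1.36% had a lower log2 fold change. Among the 3741 tested loci within 2-fold of its mean level, 75 (2.0%) were called lower. Cd82 lies on chromosome 2 from 93419111 to 93463140 (GRCm38, the assembly also named mm10; minus strand), with 11 annotated transcripts, and the 2 genes that overlap it there, Mir7001 and Gm10804, stood at no more than 0.0141 FPKM.

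The loci whose values lay closest to those of Cd82 in both groups were Sdc1, Ralgds and Slc7a11. The measure was the distance in log2 FPKM over the 2 group values, among tested loci with a single gene, and it came to 0.040, 0.089 and 0.10. Sdc1, a cell-surface heparan sulphate proteoglycan, stood at 17.3 FPKM with MEK1-hi and 39.7 FPKM with MEK1-low exosomes. Ralgds, an activator of Ral GTPases, stood at 17.7 and 36.5 FPKM, and Slc7a11, the cystine transporter, at 17.6 and 36.1 FPKM. All 3 were called in the authors' deposited table (q = 0.00349 each), which the choice made likely, since loci picked this way share the level and fold of Cd82. Likeness over a pair of values describes a similar level and fold and no more.

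The 3 usual exosome markers were not called. Cd9, which with Cd81 restrains the fusion of macrophages in mice, was the most abundant of the 9 and stood at 789 FPKM with MEK1-hi and 1015 FPKM with MEK1-low exosomes. Its log2 fold change of -0.36 was the second lowest of the 9 (p = 0.0184 and q = 0.322 per the authors' deposited table). Cd63, a tetraspanin of late endosomes and lysosomes, stood at 129 and 146 FPKM, a log2 fold change of -0.17 (p = 0.246 and q = 0.999 per the authors' deposited table). Cd81, known in humans as a receptor used by hepatitis C virus, stood at 117 and 122 FPKM, a log2 fold change of -0.07 (p = 0.665 and q = 0.999 per the authors' deposited table). All 3 values were lower with MEK1-hi exosomes, and none of these differences passed the authors' test over all loci.

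Within the 2-fold range of level around Cd9, the smallest fold that was called was 1.43, and around Cd63 and Cd81 it was 1.40. The differences of these 3 genes, 1.29-fold, 1.13-fold and 1.05-fold with the MEK1-low value on top, were smaller than any called at their level. The smallest called fold is not a limit of detection, which was not computed here. The missing calls do not show changes of that size to be absent. The ratio of Cd9 to Cd63 was 6.10 with MEK1-hi and 6.95 with MEK1-low exosomes, that of Cd9 to Cd81 was 6.76 and 8.30, and that of Cd63 to Cd81 was 1.11 and 1.19. The order of the 3 genes by level was the same in both groups.

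The leukocyte tetraspanins also had lower values without passing the test. Cd53, found across blood cell lineages, stood at 286 FPKM with MEK1-hi and 308 FPKM with MEK1-low exosomes, a log2 fold change of -0.11 (q = 0.999 per the authors' deposited table). Cd37, which in mouse macrophages holds the beta-glucan receptor Dectin-1 at the surface and is also high in B cells, stood at 76.5 and 91.5 FPKM, a log2 fold change of -0.26 (p = 0.131 and q = 0.86 per the authors' deposited table). Of B cell genes, Cd79b stood at 2.09 FPKM with MEK1-hi and 2.25 FPKM with MEK1-low exosomes. Ms4a1 stood at 0.0321 FPKM with MEK1-hi exosomes and was listed at 0 with MEK1-low exosomes, and Cd79a, Pax5 and Blk were listed at 0 in both groups. Their part in the difference of Cd37 was not tested. Clec7a, which encodes Dectin-1, stood at 564 FPKM with MEK1-hi and 721 FPKM with MEK1-low exosomes and was not called (p = 0.0324 and q = 0.458 per the authors' deposited table).

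Cd151, the partner of laminin-binding integrins, stood at 52.4 FPKM with MEK1-hi and 57.2 FPKM with MEK1-low exosomes, a log2 fold change of -0.13 (q = 0.999 per the authors' deposited table). Tspan4, a tetraspanin of migrasomes, the vesicles that form on the trailing fibres of moving cells, stood at 66.0 and 60.5 FPKM, a log2 fold change of 0.13 (q = 0.999 per the authors' deposited table). These genes are neighbours on chromosome 7, on the same strand with 3.77 kb between them, and their values differed in opposite directions, neither passing the test. Chid1 overlaps Tspan4 on the opposite strand and stood at 16.1 and 14.4 FPKM. The kit keeps strand per the labels, but the sources used here do not give whether strand was used in counting. Tspan3, a broadly expressed tetraspanin, had the largest fold change on the higher side among the 9, a log2 fold change of 0.28. It stood at 38.8 FPKM with MEK1-hi and 31.9 FPKM with MEK1-low exosomes (p = 0.0672 and q = 0.666 per the authors' deposited table).

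**Figure D2:**
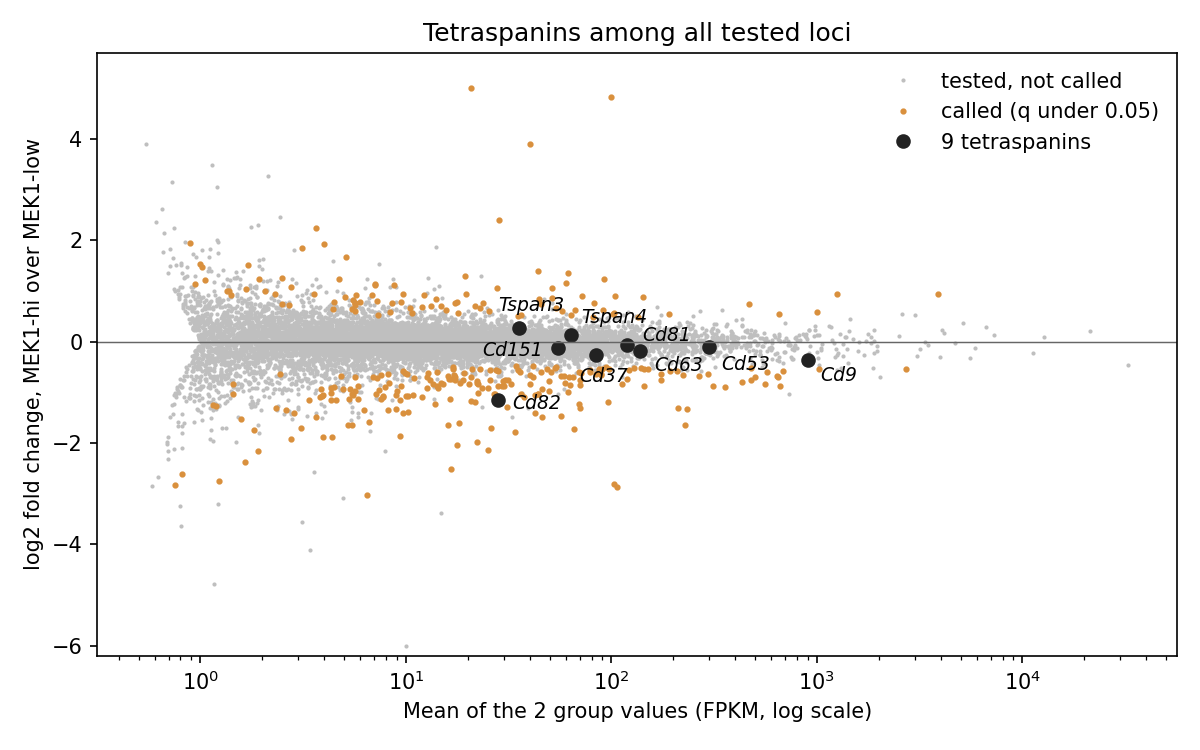
Log2 fold change, MEK1-hi over MEK1-low, against the mean of the 2 group values (FPKM, log axis) for tested loci at 1 FPKM or more in either group and above 0 in both. Called loci are orange, the others grey, and the 9 tetraspanins black. Cd82 lies among the called loci at -1.16, while the other 8 lie between -0.36 and 0.28.

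By level, the 9 genes spanned a 45.7-fold range with MEK1-hi exosomes and a 31.8-fold range with MEK1-low exosomes, from Cd9 at the top in both. The order was Cd9, Cd53, Cd63, Cd81, Cd37, Tspan4, Cd151, Tspan3 and Cd82 with MEK1-hi exosomes. With MEK1-low exosomes it differed in 1 place, Cd82 standing above Tspan3. The ratio of Tspan3 to Cd82 was 2.25 with MEK1-hi and 0.828 with MEK1-low exosomes. Without a spread between samples, it cannot be said which neighbours in this order differ. At 5.44% and 6.41%, few of the tested loci at 1 FPKM or more had a higher mean level than Cd63 and Cd81, and 0.652% were above Cd9, while 28.3% were above Cd82.

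Summed over the 9 genes, tetraspanin transcripts came to 1571 FPKM with MEK1-hi and 1871 FPKM with MEK1-low exosomes, a log2 ratio of -0.25 with no test. They made up 0.251% and 0.290% of the FPKM total. Cd9 supplied 50.2% of the sum with MEK1-hi and 54.2% with MEK1-low exosomes, and accounted for 75.5% of the difference. Without Cd9, the sums were 783 and 856 FPKM, a log2 ratio of -0.13. Cd82 supplied 1.10% and 2.06% of the sum and accounted for 7.12% of the difference, so the called gene was a minor part of the tetraspanin RNA.

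None of the rest of the tetraspanin family was called. Of 22 further family genes, 9 were tested, with 5 values higher and 4 lower with MEK1-hi exosomes, and 2 of them were higher and 0 lower at p under 0.05 before adjustment, per the authors' deposited table, against 3.53% and 5.12% of all tested loci. On the log2(FPKM + 1) scale these 9 had a median log2 fold change of 0.10, beside 0.00 for all tested loci at 1 FPKM or more, and of -0.07 over those at 5 FPKM or more. The pair at p under 0.05 before adjustment were Tspan33, which escorts the protease ADAM10 to the surface, at 2.99 FPKM with MEK1-hi and 1.87 FPKM with MEK1-low exosomes (p = 0.0157 and q = 0.294 per the authors' deposited table), and Tspan32, a tetraspanin of blood cells, at 12.3 and 8.81 FPKM (p = 0.0133 and q = 0.27 per the authors' deposited table). Tspan32 lies 33.1 kb from Cd81 on chromosome 7, and the 2 genes had values on opposite sides. The most abundant of these family genes was Tspan31, known in human sarcomas as an amplified gene, at 54.3 and 57.4 FPKM. Rom1, a photoreceptor gene, stood at 1.26 and 1.65 FPKM and was not called.

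The other ADAM10 escorts that were tested, Tspan14, Tspan17 and Tspan5, stood at 45.6, 23.9 and 12.9 FPKM with MEK1-hi exosomes and at 40.9, 25.5 and 13.6 FPKM with MEK1-low exosomes (q = 0.999 for each per the authors' deposited table). Adam10 itself stood at 81.0 and 71.9 FPKM and was not called (q = 0.999 per the authors' deposited table). The other 13 family genes were not tested and stood at no more than 0.267 FPKM with MEK1-hi and 0.172 FPKM with MEK1-low exosomes. They include Tspan18, the tetraspanin gene 84.6 kb from Cd82, at 0.0283 and 0.0878 FPKM.

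**Figure D3:**
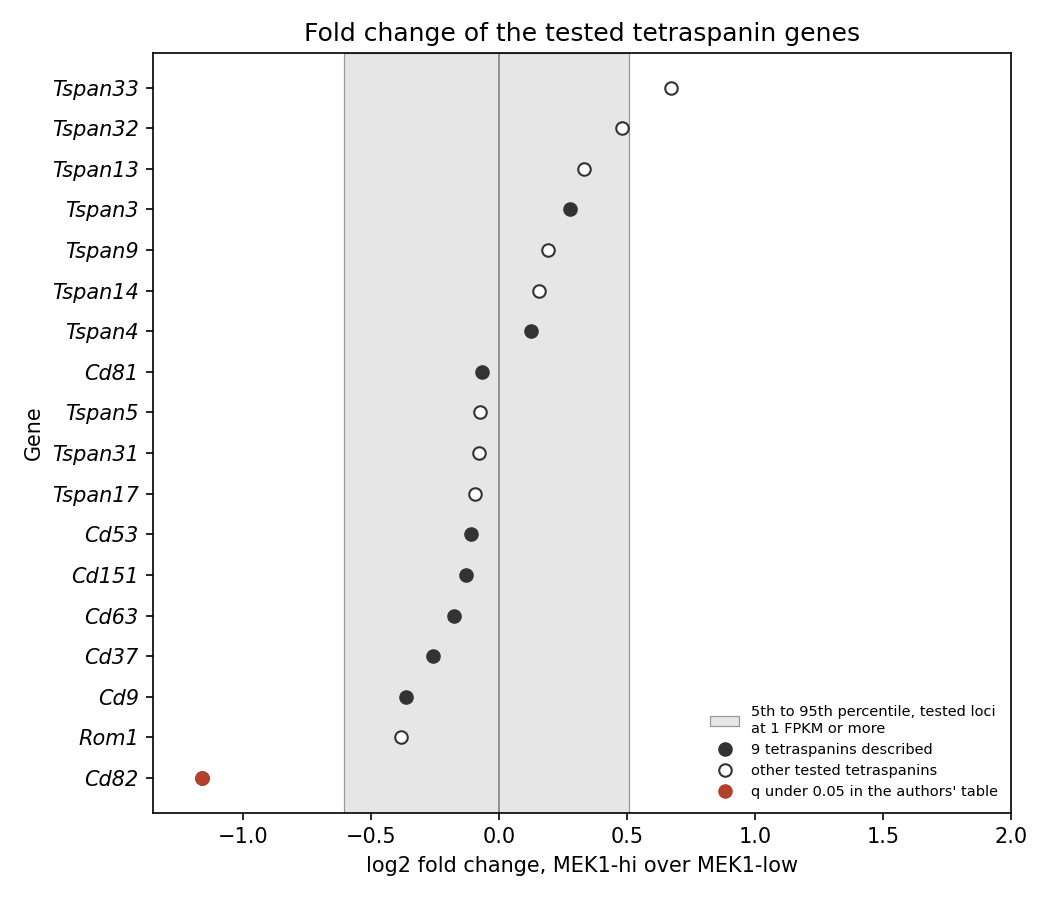
Log2 fold change, MEK1-hi over MEK1-low, of the 18 tetraspanin genes that the authors tested, filled for the 9 described and open for the others, 1 value per gene. The grey band runs from the 5th to the 95th percentile of tested loci at 1 FPKM or more (-0.60 to 0.51), with Cd82, the called gene, below it at -1.16 and Tspan33, not called, above it at 0.67.

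Among genes for proteins that tetraspanins bind or are recovered with, 2 of 17 tested fell and 0 rose, against 1.69% and 0.751% of all tested loci. Their median log2 fold change was -0.10 on the log2(FPKM + 1) scale, with 7 values higher and 10 lower, and it was -0.01 over those at 5 FPKM or more. The list was chosen with earlier results of these data known, so the shares do not test for an excess. Ptgfrn, the immunoglobulin-superfamily partner of Cd9 and Cd81 also called EWI-F, fell to 15.1 FPKM with MEK1-hi exosomes, against 23.1 FPKM with MEK1-low exosomes (log2 fold change -0.62, q = 0.00349 per the authors' deposited table). Mmp14, a membrane-bound protease that several tetraspanins bind, fell to 206 FPKM, against 330 FPKM with MEK1-low exosomes (log2 fold change -0.68, q = 0.00349 per the authors' deposited table). Igsf8, which encodes the related partner EWI-2, stood at 79.7 and 84.5 FPKM and was not called (q = 0.999 per the authors' deposited table).

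The integrin partners were not called. Itga6, whose product pairs with Cd151, stood at 67.1 FPKM with MEK1-hi and 48.7 FPKM with MEK1-low exosomes, a log2 fold change of 0.46 (p = 0.0037 and q = 0.111 per the authors' deposited table). Itgb1, the beta-1 integrin chain, stood at 136 and 129 FPKM, and Itga3, another chain that pairs with Cd151, at 0.855 and 1.13 FPKM. Ifitm3, an antiviral membrane protein, stood at 340 and 322 FPKM and was not called. Ifitm1, of the same family, stood at 0.430 and 1.03 FPKM (p = 0.0905 and q = 0.762 per the authors' deposited table).

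Of 16 tested genes for vesicle cargo or vesicle formation other than tetraspanins, 1 rose and 2 fell, against 0.751% higher and 1.69% lower of all tested loci, and their median log2 fold change was -0.05 on the log2(FPKM + 1) scale. This list, too, was chosen with earlier results of these data known, so the shares do not test for an excess. The genes that fell were Ptgfrn, which stands in both lists, and Sdc1, at 17.3 FPKM with MEK1-hi and 39.7 FPKM with MEK1-low exosomes (log2 fold change -1.20, q = 0.00349 per the authors' deposited table). Sdc3, another syndecan, rose to 157 FPKM, against 111 FPKM with MEK1-low exosomes (log2 fold change 0.50, q = 0.043 per the authors' deposited table). Sdcbp, which encodes syntenin, an adaptor of Cd63 and syndecans in exosome formation, stood at 499 and 522 FPKM and was not called. Lamp1, a lysosomal membrane protein, stood at 768 and 799 FPKM, and the annexin genes Anxa5 and Anxa2 stood at 558 and 353 FPKM with MEK1-hi exosomes and at 607 and 307 FPKM with MEK1-low exosomes, all without a call. Rab27a, a GTPase of vesicle release whose locus is joined with Gm27186, stood at 1.02 and 0.553 FPKM (p = 0.0412 and q = 0.517 per the authors' deposited table).

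**Figure D4:**
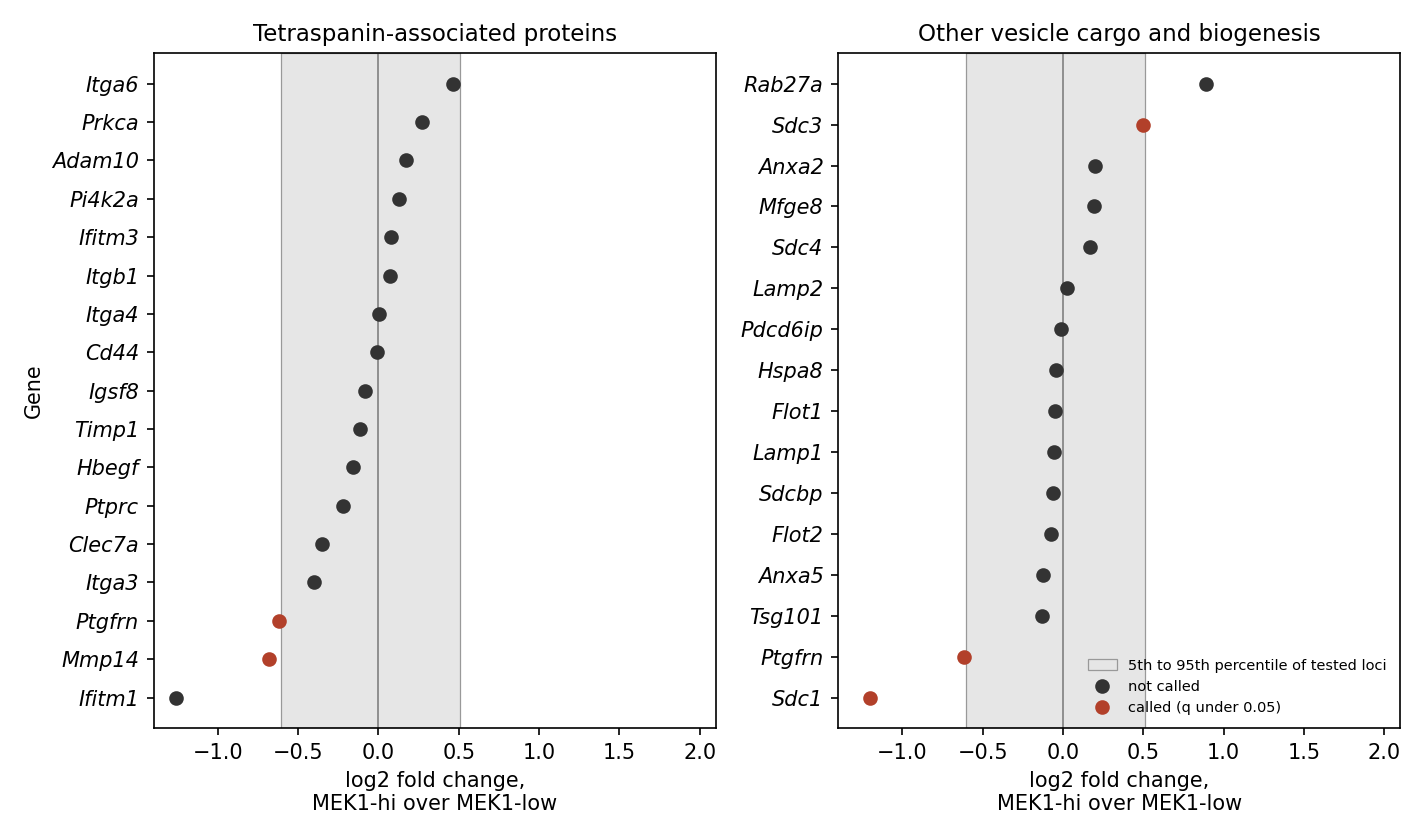
Log2 fold change, MEK1-hi over MEK1-low, of tested genes for tetraspanin-associated proteins (left) and for other vesicle cargo and biogenesis (right), 1 value per gene, with called genes in red and the 5th to 95th percentile of tested loci at 1 FPKM or more in grey. Sdc1 at -1.20, Mmp14 at -0.68 and Ptgfrn at -0.62 were called lower, and Sdc3 at 0.50 was called higher.

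Macrophage markers were high in both groups, Lyz2 leading at 13148 FPKM with MEK1-hi and 12303 FPKM with MEK1-low exosomes. Of the 12 macrophage markers, all tested, Cd14 was called, at 136 and 213 FPKM (q = 0.00349 per the authors' deposited table). No marker of another cell type was called, but many were not tested and so could not be called. Tested were 1 of 7 T cell, 1 of 6 B cell, 1 of 6 NK cell, 1 of 6 dendritic cell and 2 of 8 neutrophil markers. So were 5 of 8 fibroblast, 3 of 6 endothelial and 3 of 6 megakaryocyte markers. Summed over their lists with MEK1-hi and MEK1-low exosomes, fibroblast markers came to 5.38 and 6.64 FPKM (Col1a1 highest, 1.59 and 1.60), T cell markers to 5.02 and 7.01 FPKM (Cd4 highest, 4.52 and 6.52), B cell markers to 2.13 and 2.25 FPKM (nearly all of it Cd79b) and NK cell markers to 1.61 and 1.87 FPKM (the joined locus of Klrb1c highest). Dendritic cell markers came to 4.83 and 4.75 FPKM, most of it the joined locus of Clec9a and Clec1b, and endothelial markers to 3.31 and 4.83 FPKM, with Vwf highest. Neutrophil markers came to 53.5 and 73.5 FPKM, with Csf3r (30.8 and 37.8 FPKM) and S100a8 (22.6 and 35.5 FPKM) highest. S100a8 had p = 0.00405 and q = 0.118 per the authors' deposited table. The neutrophil genes Elane, Ly6g, Mpo and S100a9 were at 0 in each group. Megakaryocyte markers came to 996 and 848 FPKM, nearly all of it Pf4, with Gp9 listed at 0. The others of that list were low: Ppbp at 7.34 and 5.89 FPKM, Itga2b at 0.425 and 0.743, Gp1ba at 0.359 and 0.263, and Gp6 at 0 and 0.0411. The sum thus stands for Pf4 and not for the list. Several sums were lower with MEK1-hi exosomes, as was Cd82, and their part in the difference of Cd82 was not tested.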

How the data were processed

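Per the submitters' processing notes, the authors used FastQC 0.73, TopHat, Cufflinks, Cuffdiff and mouse build mm10, with settings not given in the sources used here. Per the labels' protocols, stranded libraries were made from 750 ng of RNA and sequenced as 100 bp pairs, with a target of about 25000000 reads. The authors deposited 1 FPKM value per group and locus, with a test statistic (a score), a p-value and a q-value from their test. The column headed GFP exo was taken as MEK1-low because that treatment label alone names GFP. The deposited q-values were recovered from the p-values by Benjamini-Hochberg adjustment over the tested loci, within 5.19e-07. Log2 fold changes were recomputed from the FPKM values. No test of a gene was run here, since no values per sample were used.

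Of 55029 gene identifiers, 99.5% matched a symbol. Gene positions are from GENCODE M21. A locus can join several genes, as did 871 of those tested, but none of the 9. The members and lists were chosen with earlier results of these data known, the fall of Cd82 included. Named are the 9 genes, the 3 loci nearest Cd82, every called list member, the 4 highest and 3 most changed of each tetraspanin-related list, and the called and highest markers. Cd14 and Mmp14 are among them. Igsf8, Itga3, Itga6, Adam10, Tspan18 and some markers were added after their values were seen. Alternatives were other thresholds, scalings, pseudocounts and filters. Counting and adjustment were tested on simulated data. Python 3.11.15, numpy 2.4.6, pandas 2.3.3 and matplotlib 3.10.9 were used.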

Additional observations from a re-analysis of the deposited data

How the results depend on the processing

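Over 27 alternatives for the fold changes of the 9 genes, 0 changed sign, and none could have. The scalings shift every gene alike, by -0.001 or 0.0435 on the log2 scale. The fold change nearest to no difference, that of Cd81, was -0.0668. A pseudocount of 1 cannot turn a sign. Of 83 alternatives for all results, 25 concerned counts of called genes, to which a log2 limit does not apply. Among the others, 2 values moved by 0.1 or more on the log2 scale. That limit was set here because no spread between samples exists. The count of all called loci went from 309 to 214 at a q threshold of 0.01 and to 393 at 0.1. Leaving Cd9 out of the sum of the 9 genes took its log2 ratio to -0.13, beside -0.25. A minimum of 5 FPKM in place of 1 turned the median of the other tetraspanins to -0.07, beside 0.10, as fewer genes remain, and that of the tetraspanin partners to -0.01, beside -0.10. Scaling both groups to the same FPKM total, a log2 shift of 0.04 for every gene, took the median of the vesicle genes to -0.003, beside -0.05. Cd82 was called under q thresholds of 0.01 and 0.1, with an absolute test statistic of at least 2, with p-values adjusted over loci at 1 FPKM or more, and without joined loci, and no other of the 9 was called under any of these. These calls follow from the deposited values, with Cd82 at q = 0.00349 and Cd9 next at q = 0.322 per the authors' deposited table. They do not test the fall of Cd82 against other samples or another model. At a q threshold of 0.01, 2 vesicle genes were called in place of 3, Sdc3 being lost. No paired analysis was possible because the table gives 1 value per group and none per sample, and for the same reason leaving out a replicate was not run. The depth reached is unknown, so counting error cannot be given.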

Other observations

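The syndecans, heparan sulphate proteoglycans that syntenin links to exosome formation, had values on both sides. Sdc2 was added after its values were seen. With MEK1-hi and MEK1-low exosomes, Sdc1 stood at 17.3 and 39.7 FPKM and Sdc3 at 157 and 111 FPKM, both called in the authors' deposited table. Sdc4 stood at 37.1 and 33.0 FPKM (q = 0.999 per the authors' deposited table) and Sdc2 at 0.682 and 0.992 FPKM (q = 0.78 per the authors' deposited table). Summed, the 4 syndecan genes came to 212 FPKM with MEK1-hi and 185 FPKM with MEK1-low exosomes, a log2 ratio of 0.20 with no test.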
